A study of Mus musculus with 16 samples.

Results

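Histone H3 can carry methyl groups on lysine 36 (H3K36), and 7 genes whose products add or remove them were followed through mouse oocyte growth: the methyltransferases Setd2, Nsd1 and Ash1l and the demethylases Kdm2a, Kdm2b, Kdm4a and Kdm4c. They were chosen by name and make up 7 of the 25965 gene rows of the RNA table, and all 7 were among the 10489 genes that could be tested. All samples were pools of oocytes from wild-type C57BL/6 mice (C57BL/6Babr in the methods), with no transgene or treatment in any group. Oocytes were picked from ovaries of pre-pubertal animals and measured, giving size classes of 10–30 µm, 40–45 µm, 50–55 µm and 60–65 µm in diameter, each with RNA libraries A and B, and a single RNA library came from germinal vesicle (GV) oocytes, the stage reached at the end of growth. Larger oocytes were collected from older animals, so that size and age cannot be told apart. DNA methylation was measured by reduced representation bisulphite sequencing (RRBS), which favours CpG-rich sequence, in libraries A and B of every class from 40–45 µm upwards, and by post-bisulphite adapter tagging (PBAT), which samples the whole genome, in 1 library of 60–65 µm oocytes.

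As background, SETD2 travels with elongating RNA polymerase II and places trimethylation of H3K36 along transcribed genes, whereas NSD1 and ASH1L place dimethylation more broadly. The PWWP domain of the de novo DNA methyltransferases binds methylated H3K36, and in oocytes DNA methylation is deposited mainly over transcribed gene bodies. KDM2A and KDM2B remove mono- and dimethylation and carry a CXXC zinc finger that binds unmethylated CpG sites, and KDM2B also recruits a variant Polycomb complex, PRC1.1, to CpG islands. KDM4A and KDM4C remove trimethylation from H3K36 and also from H3K9. The questions put to the data were how the transcripts of these enzymes changed while DNA methylation was being acquired, and what happened to the DNA methylation of the genes themselves.

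The RNA values are RPKM, reads per kilobase of exon scaled to the library's reads, so that levels can be compared between genes. The table holds no read counts, but the low values fell on steps of whole reads: depending on the library, 83.8–85.2% of low values lay within 0.1 of a whole number of reads, and the size of 1 read differed 1.99-fold between libraries. With exon lengths from the GENCODE M21 annotation, Kdm4c rested on approximately 120–505 reads per library, Ash1l on 1219–3804 and Nsd1 on 4957–19627. The 10 oocyte markers summed to 3583–3590 RPKM at 10–30 µm, 3482–3875 RPKM at 40–45 µm, 3298–3306 RPKM at 50–55 µm, 2906–3068 RPKM at 60–65 µm and 2712 RPKM in the GV library. Of 10 granulosa cell markers 9 stayed under 1 RPKM throughout, and Foxl2, which defines that cell type, was at most 0.0642 RPKM, but the summed level of the list rose from 1.98–2.39 RPKM at 10–30 µm to 6.22–6.62 RPKM at 60–65 µm, most of it from Nr5a2 (1.29–5.56 RPKM). The 8 blood, immune and endothelial markers rose from 0.853–0.931 to 4.77–5.11 RPKM, most of it from Pecam1 (0.531–5.68 RPKM), while Ptprc was at most 0.00823 RPKM and was among the markers at 0 in some libraries. The 8 theca and stroma markers summed to 2.08–2.81 RPKM at 10–30 µm and 0.915–0.940 RPKM at 60–65 µm, and Cyp17a1 and Tcf21 were at 0 in at least 1 library. Their part in the changes described here was not tested. RRBS libraries held 29942043–57215134 methylation calls and the PBAT library 98148116. Nothing in the labels or methods states that libraries A and B came from separate animals, so the p-values measure only the spread between these samples. A lower level in these bulk samples cannot separate fewer cells that hold a transcript from less of it in each cell.

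Promoter sequences were found for 4 of the 7 genes (Setd2, Kdm2b, Kdm4a and Kdm4c) in the RefSeq annotation of GRCm38, each running from 250 bases before to 50 after a transcript start. A pair with unmethylated promoters, Setd2 and Kdm4c, and a pair of Kdm2b promoters that gained methylation during growth are shown because DNA methylation at these starts is described further on. Bases are lower case, with every CpG dinucleotide, the site that is methylated, in capitals, written 5′ to 3′ on the strand of the gene. The Setd2 window lies at chr9:110532347-110532646 on the plus strand and holds 38 CpG sites, a number reached by 4.95% of 32851 mouse promoters (median 7). The Kdm2b windows lie on the minus strand at chr5:122989050-122989349 (upstream start, 28 CpG sites, reached by 14.2% of promoters) and chr5:122900318-122900617 (downstream start, 47 CpG sites, 1.44%). The Kdm4c window lies at chr4:74251629-74251928 on the plus strand and holds 28 CpG sites. Another Kdm4c window, at the start of the row in the table (chr4:74242247-74242546), holds 0 CpG sites and had no methylation data, and is not printed.
Setd2 promoter: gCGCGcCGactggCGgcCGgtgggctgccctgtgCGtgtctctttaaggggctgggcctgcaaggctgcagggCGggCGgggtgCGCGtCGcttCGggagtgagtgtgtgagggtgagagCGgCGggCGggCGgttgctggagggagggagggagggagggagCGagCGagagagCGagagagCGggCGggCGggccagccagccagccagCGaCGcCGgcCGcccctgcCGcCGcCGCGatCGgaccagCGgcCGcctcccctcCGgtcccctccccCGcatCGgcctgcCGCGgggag
Kdm2b upstream promoter: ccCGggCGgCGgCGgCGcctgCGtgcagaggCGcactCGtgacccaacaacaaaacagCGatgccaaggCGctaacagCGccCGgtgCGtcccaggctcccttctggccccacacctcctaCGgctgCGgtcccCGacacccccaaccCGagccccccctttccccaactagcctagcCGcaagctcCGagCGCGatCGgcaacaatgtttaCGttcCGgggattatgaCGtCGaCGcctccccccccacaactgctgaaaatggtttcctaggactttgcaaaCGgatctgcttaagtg
Kdm2b downstream promoter: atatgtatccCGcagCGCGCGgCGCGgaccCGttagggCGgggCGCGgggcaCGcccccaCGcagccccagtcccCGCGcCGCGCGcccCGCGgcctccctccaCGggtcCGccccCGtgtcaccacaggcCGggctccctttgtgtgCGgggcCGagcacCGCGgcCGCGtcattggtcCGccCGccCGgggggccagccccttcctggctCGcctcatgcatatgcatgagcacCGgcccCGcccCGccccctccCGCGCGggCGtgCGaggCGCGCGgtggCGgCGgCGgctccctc
Kdm4c promoter: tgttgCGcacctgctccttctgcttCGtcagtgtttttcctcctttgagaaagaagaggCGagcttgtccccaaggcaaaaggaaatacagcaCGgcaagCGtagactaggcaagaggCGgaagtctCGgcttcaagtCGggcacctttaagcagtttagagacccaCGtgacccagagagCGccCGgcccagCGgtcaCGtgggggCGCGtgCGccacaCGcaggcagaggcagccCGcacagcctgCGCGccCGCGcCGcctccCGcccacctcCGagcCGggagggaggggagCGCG

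Over the whole of growth, from 10–30 to 60–65 µm, the transcripts of 4 of the 7 enzymes rose and that of 1 fell. Kdm2b rose 3.33-fold, Kdm4a 1.73-fold, Setd2 1.61-fold and Kdm2a 1.35-fold, and Kdm4c fell 2.26-fold, whereas Nsd1 and Ash1l did not pass the test. Growth altered much of the transcriptome in the same fit: 63.2% of all genes tested passed in either direction, 32.4% upwards and 30.8% downwards, so that the count of 5 of 7 lies near the background and is not a result about these genes. The test throughout was limma on log2(RPKM + 0.1) over the 8 libraries of growing oocytes, with Benjamini-Hochberg adjustment over all 10489 genes and a threshold of 0.05, and log2 differences are on that scale. Within growth, 3 of the 7 passed between 10–30 and 40–45 µm (2 up, 1 down), where 23.8% of all genes did (16.0% up, 7.74% down). Between 40–45 and 60–65 µm 2 of the 7 passed (1 up, 1 down), where 38.0% of all genes did (16.6% up, 21.5% down). The split between genes that rose and fell depended on how libraries were scaled to each other. In the first step 67.4% of the genes that passed had risen, against 41.7% without scaling, and in the second step 43.5%, against 58.7% without scaling. The median change of all genes moved with it from 0.05 to -0.07 and from -0.04 to 0.06 on the log2 scale.

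**Figure D1:**
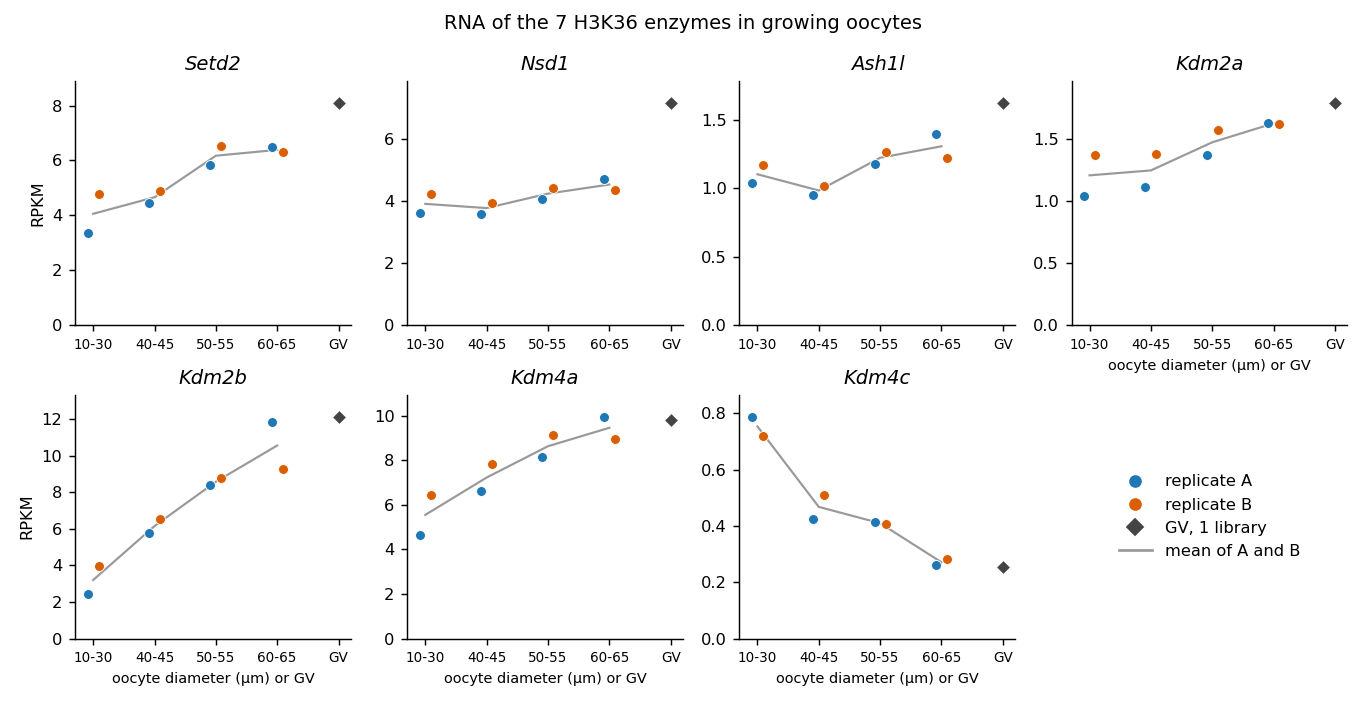
RPKM of the 7 genes in each RNA library, with the size class on the horizontal axis, 1 panel per gene, points for single libraries and a line through the class means of growing oocytes. Kdm2b climbs from 2.45–3.96 to 9.29–11.8 RPKM and Kdm4c falls from 0.719–0.788 to 0.260–0.283 RPKM, whereas Nsd1 and Ash1l stay within a narrow band until the GV library.

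Among the methyltransferases, Setd2, the enzyme of H3K36 trimethylation, gave 3.35 and 4.76 RPKM in libraries A and B of 10–30 µm oocytes, 4.43 and 4.89 at 40–45 µm, 5.82 and 6.52 at 50–55 µm, 6.48 and 6.30 at 60–65 µm and 8.09 in the GV library. The smallest and largest growing classes did not overlap, whereas the 10–30 and 40–45 µm classes did. Its rise over growth was 0.68 ± 0.14 on the log2 scale (SE, limma adjusted p = 0.00325). The rise was 0.34 ± 0.14 up to 40–45 µm (adjusted p = 0.122) and 0.35 ± 0.14 after it (adjusted p = 0.0868, limma), and neither step passed the test alone. The later step did pass, with an adjusted p of 0.0214 or 0.0202, when library A or B of the 10–30 µm class was left out and with the 2 classes alone in the fit (0.0278), and the earlier step passed without library B of that class (0.55, adjusted p = 0.0124) but shrank without library A (0.13, adjusted p = 0.511).

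Nsd1, which places H3K36 dimethylation, gave 3.60 and 4.21 RPKM at 10–30 µm, 3.59 and 3.95 at 40–45 µm, 4.07 and 4.40 at 50–55 µm and 4.72 and 4.34 at 60–65 µm. The 10–30 and 40–45 µm classes overlapped, as did the 50–55 and 60–65 µm classes, while the ends of growth did not, and the difference between the ends, 0.23 ± 0.10 on the log2 scale (limma adjusted p = 0.0765), had a 95% interval from -0.0020 to 0.46. Of the 18 other settings tried it passed in 1, with library B of 10–30 µm left out (0.31, adjusted p = 0.0448). Its level in the GV library, 7.15 RPKM, stood above every growing library.

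Ash1l, the third methyltransferase and a Trithorax-group protein, was several times lower, at 1.04 and 1.17 RPKM at 10–30 µm, 0.955 and 1.01 at 40–45 µm, 1.18 and 1.27 at 50–55 µm, 1.39 and 1.22 at 60–65 µm and 1.62 in GV oocytes. The difference between the ends was 0.24 ± 0.11 on the log2 scale (limma adjusted p = 0.0792), with a 95% interval from -0.0048 to 0.49. After 40–45 µm the difference was 0.28 ± 0.11 (adjusted p = 0.0748), and it passed without scaling (0.37, adjusted p = 0.0371) and with libraries scaled to the same sum (0.38, adjusted p = 0.0389).

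Of the demethylases, Kdm2b changed the most of the 7 genes. It gave 2.45 and 3.96 RPKM at 10–30 µm, 5.77 and 6.53 at 40–45 µm, 8.37 and 8.78 at 50–55 µm, 11.8 and 9.29 at 60–65 µm and 12.1 in GV oocytes. No 2 neighbouring size classes overlapped, and Kdm2b moved from the fourth to the first place among the 7 in RPKM, although at 60–65 µm it still overlapped with Kdm4a. The rise was 1.74 ± 0.19 on the log2 scale over growth (limma adjusted p = 0.000113), of which 1.08 ± 0.19 came before 40–45 µm (adjusted p = 0.00631) and 0.66 ± 0.19 after it (adjusted p = 0.0273). The later step no longer passed when either library of 40–45 µm (adjusted p = 0.113 without A and 0.0692 without B) or library A of 60–65 µm (0.191) was left out, nor with no filter on low values (0.0553).

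Its paralogue Kdm2a, by contrast, moved little, with 1.04 and 1.37 RPKM at 10–30 µm, 1.12 and 1.38 at 40–45 µm, 1.37 and 1.57 at 50–55 µm, 1.63 and 1.63 at 60–65 µm and 1.79 in GV oocytes. The first pair of classes overlapped, and the ends did not. The rise over growth was 0.43 ± 0.14 on the log2 scale (limma adjusted p = 0.0246), and it was lost when library A of 10–30 µm was left out (0.28, adjusted p = 0.144), as well as without library A (0.0906) or B (0.0919) of 60–65 µm and with libraries scaled to the same sum (0.41, adjusted p = 0.0532). Kdm2b was 2.35 and 2.88 times the level of Kdm2a in RPKM in the smallest oocytes and 7.26 and 5.71 times in the largest.

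The KDM4 demethylases, which act on the trimethylated mark placed by SETD2, moved in opposite directions. Kdm4a gave 4.65 and 6.46 RPKM at 10–30 µm, 6.63 and 7.83 at 40–45 µm, 8.14 and 9.13 at 50–55 µm, 9.96 and 8.97 at 60–65 µm and 9.82 in GV oocytes. Its rise over growth was 0.79 ± 0.15 on the log2 scale (limma adjusted p = 0.00169). The step up to 40–45 µm, 0.51 ± 0.15, passed narrowly (adjusted p = 0.0370) and was lost when any of 7 of the 8 libraries was left out (adjusted p = 0.0525–0.159), library B of 10–30 µm being the exception. It was also lost without scaling (0.39, adjusted p = 0.119), with libraries scaled to the same sum (0.38, adjusted p = 0.135), with no filter (0.0654) and with the 2 classes alone in the fit (0.0975). The later step was 0.28 ± 0.15 (adjusted p = 0.156).

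Kdm4c was the lowest of the 7 in every class, with 0.788 and 0.719 RPKM at 10–30 µm, 0.426 and 0.510 at 40–45 µm, 0.413 and 0.407 at 50–55 µm, 0.260 and 0.283 at 60–65 µm and 0.253 in GV oocytes. The smallest and largest classes were well apart. It fell by 1.18 ± 0.13 on the log2 scale (limma adjusted p = 0.000107), by 0.48 ± 0.13 before 40–45 µm (adjusted p = 0.0285) and by 0.69 ± 0.13 after it (adjusted p = 0.00454). At levels this low the size of the fall depends on the pseudocount, and over growth it fell by 0.45 with a pseudocount of 1 and by 1.42 with 0.01, passing in both. Kdm4c entered the test, which required 0.5 RPKM in 2 libraries, through the small oocytes where it was highest, so a fall was built into its selection. Without that filter the fall over growth still passed, whereas the early step did not (adjusted p = 0.0577), and with a minimum of 1 RPKM it was not tested at all. The early step was also lost when library A of the 10–30 µm class (0.160), library A of 40–45 µm (0.145) or any 1 library of the 50–55 or 60–65 µm classes (0.0512–0.0580) was left out.

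**Figure D2:**
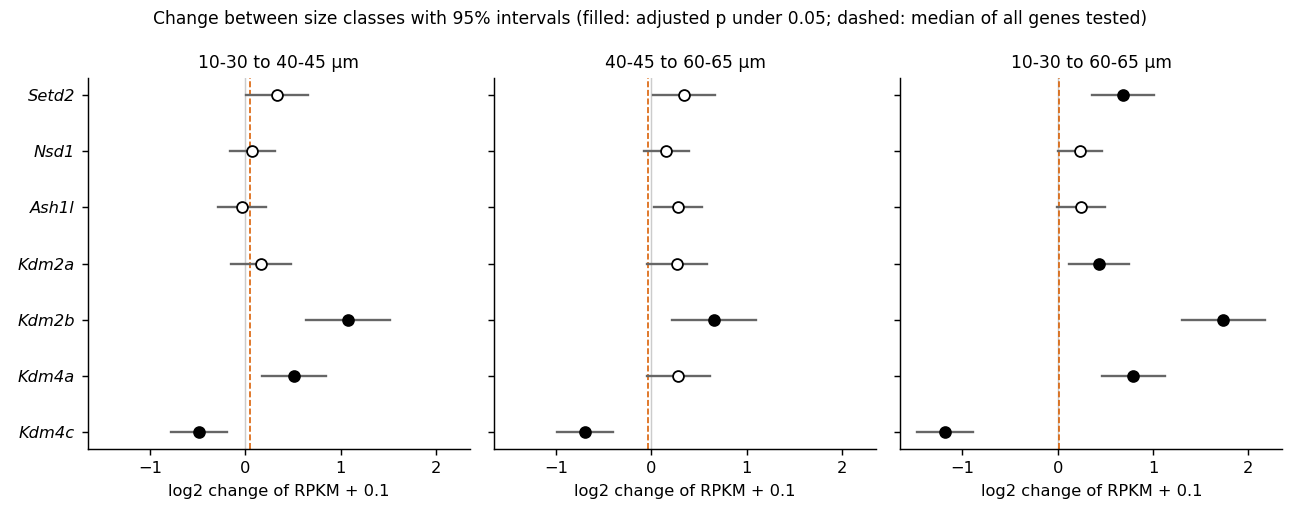
Log2 change of each gene between size classes, on the log2(RPKM + 0.1) scale, as points with 95% intervals from limma, filled where the adjusted p is under 0.05, and with a dashed line at the median of all genes. Over the whole of growth the intervals of Setd2, Kdm2a, Kdm2b, Kdm4a and Kdm4c lie away from 0, with Kdm2b at 1.74 and Kdm4c at -1.18, and those of Nsd1 and Ash1l reach 0.

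As a group, the 3 methyltransferases made up 47.2 and 44.8% of the summed RPKM of the 7 genes in libraries A and B of 10–30 µm oocytes. Their share was 39.2 and 37.7% at 40–45 µm, 37.7 and 38.0% at 50–55 µm and 34.7 and 37.0% at 60–65 µm. Demethylase transcripts thus gained in share, and most of the shift lay before 40–45 µm. This shift came with Kdm2b and Kdm4a on one side and a nearly level Nsd1 on the other. Within the KDM4 pair, Kdm4a was 5.89 and 8.98 times Kdm4c in RPKM in the smallest class and 38.3 and 31.7 times in the largest. Among all rows of the table, the 60–65 µm means of Kdm2b and Kdm4a ranked at percentiles 93.0 and 92.2, Setd2 at 88.1, Nsd1 at 84.2, Kdm2a at 71.99, Ash1l at 69.8 and Kdm4c at 57.4. At 60–65 µm the order was Kdm2b, Kdm4a, Setd2, Nsd1, Kdm2a, Ash1l and Kdm4c, and only Kdm2b and Kdm4a overlapped between neighbours, whereas at 10–30 µm the pairs Kdm4a and Setd2, Setd2 and Nsd1, Nsd1 and Kdm2b, and Kdm2a and Ash1l overlapped.

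The GV library, which has no replicate and was therefore not tested, showed Setd2, Nsd1 and Ash1l higher than in 60–65 µm oocytes. Nsd1 was 1.59 times its 60–65 µm mean, a ratio at percentile 98.6 among all tested genes, of which 4.56% differed 1.5-fold or more in either direction. Setd2 was 1.28 times higher (percentile 93.6) and Ash1l 1.25 times (91.7). The demethylases ranged from 0.940 times for Kdm4c (percentile 42.5) to 1.16 times for Kdm2b (85.4), with Kdm4a at percentile 65.3 and Kdm2a at 76.5. The methyltransferase share of the summed RPKM was 41.3% in the GV library, between the shares of the smallest and largest growing oocytes.

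Genes with the RNA profile closest to each enzyme were picked by the root mean square difference of log2 values over the 8 growing libraries, each profile centred on its own mean. For Setd2 these were Ralgapb (0.0442) and Zfp236 (0.0495), for Nsd1 Smg1 (0.0291) and Adck4 (0.0304), and for Ash1l Smg1 (0.0432) and Mlec (0.0454). Smg1 was thus shared by Nsd1 and Ash1l, whose profiles were the flattest. Their root mean square difference from their own mean was 0.109 and 0.135, against 0.197 for Kdm2a to 0.690 for Kdm2b among the others. For Kdm2a they were Arhgap1 (0.0344) and Nucb1 (0.0405), and for Kdm2b Slc44a2 (0.0662) and Cgn (0.0794). For Kdm4a they were Ppfia1 (0.0262) and Cecr2 (0.0268), and for Kdm4c Lgals8 (0.0423) and Ap4b1 (0.0791).

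The remaining genes of the pathway were taken from fixed lists, and counts refer to growth from 10–30 to 60–65 µm, where 32.4% of all tested genes rose, 30.8% fell and their median was 0.02 on the log2 scale. Of 5 other H3K36 methyltransferases 4 were tested, of which 1 rose and 2 fell (median -0.92), against 63.2% of all genes passing in either direction. Prdm9, which marks meiotic recombination sites, went from 0.965 and 0.920 RPKM to 0.203 and 0.198 (-1.77, limma adjusted p = 2.14e-05). Prdm9, like Kdm4c, entered the test through the small oocytes, so its fall was favoured by the selection, and without the filter, a setting added after the values were seen, its adjusted p in limma was 0.000193. Smyd2 went from 4.40 and 4.005 to 1.12 and 1.26 RPKM (-1.72, adjusted p = 3.54e-05). Setmar rose from 2.45 and 2.52 to 3.68 and 3.62 RPKM (0.56, adjusted p = 0.000858). Of 5 other H3K36 demethylases 3 were tested (median 0.05), and their limma differences were 0.10 for Kdm4b (adjusted p = 0.518), -0.12 for Kdm8 (adjusted p = 0.323) and 0.055 for Riox2 (adjusted p = 0.596).

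Readers of methylated H3K36 were mixed, with 7 of 16 tested members rising and 3 falling (median 0.22), against 32.4% of all genes rising and 30.8% falling. Pwwp2a rose from 1.01 and 1.29 to 2.46 and 2.14 RPKM (0.97, limma adjusted p = 0.000461), and Psip1, a chromatin tether with a PWWP domain, from 13.7 and 14.0 to 22.4 and 21.96 RPKM (0.69, adjusted p = 0.00131). Zmynd11, which reads the trimethyl mark on variant histone H3.3, fell from 2.41 in both libraries to 1.21 and 1.37 RPKM (-0.84, adjusted p = 0.000534). Mum1 fell from 5.44 and 5.86 to 3.72 and 3.79 RPKM (-0.56, adjusted p = 0.00123).

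The elongation machinery with which SETD2 works had 3 of 23 tested members rising and 8 falling (median -0.10), the falling share lying near the 30.8% of all genes and the rising share below the 32.4%. Supt6, the histone chaperone SPT6, rose from 6.81 and 8.95 to 12.9 and 10.46 RPKM (0.59, limma adjusted p = 0.00915), and Cdk12, a kinase of the polymerase tail, from 3.43 and 4.44 to 5.43 and 5.46 RPKM (0.49, adjusted p = 0.00934). Polr2a, the largest subunit of RNA polymerase II, fell from 1.24 and 1.29 to 0.677 and 0.657 RPKM (-0.81, adjusted p = 0.000285), and the elongation factor Ell2 from 7.01 and 8.82 to 3.93 and 4.97 RPKM (-0.80, adjusted p = 0.00175). Of the 9 partners of KDM2B in PRC1.1, all tested, 5 rose and 4 did not pass (median 0.39), against 32.4% of all genes rising. Its scaffold subunit Bcor rose from 0.377 and 0.429 to 0.792 and 0.840 RPKM (0.88, adjusted p = 0.000328) and Bcorl1 from 0.220 and 0.379 to 0.828 and 0.702 RPKM (1.15, adjusted p = 0.000889). Both were under 0.5 RPKM in the smallest oocytes and entered the test through larger ones, so a rise was favoured by the selection, and without the filter their adjusted p in limma was 0.00152 and 0.00365.

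All 7 genes are themselves transcribed in the oocyte, and their bodies, from 2 kb after the start to the end in the table's coordinates (GRCm38), were examined in the PBAT library. Pooled over 2659 CpG positions with at least 5 reads and 21363 calls, 51.5% of calls in the 7 bodies were methylated (95% Wilson interval 50.9–52.2%). Kdm2b held 1277 of these positions and 10397 of the calls. Taking the mean over positions for each body, the 8713 bodies of genes tested for RNA had a median of 50.6% (quartiles 36.2 and 60.6%) and the 8367 bodies of other genes a median of 9.48%. These intervals cover counting error only, and a single library allows no test.

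The bodies ranged widely. Kdm2a (chr19:4316144-4396285) reached 67.1% (64.6–69.5%, 153 positions), Ash1l (chr3:88967812-89079373) 66.9% (64.4–69.2%, 201 positions) and Kdm4a (chr4:118136957-118178043) 65.8% (64.3–67.4%, 446 positions), as shares of pooled calls. By the mean over positions they were at 65.5, 66.0 and 66.5%, at percentiles 85.8, 86.8 and 87.8 of expressed bodies. Setd2 (chr9:110534597-110618633) reached 49.0% (45.9–52.2%, 132 positions) and Kdm2b (chr5:122870668-123013080) 48.2% (47.3–49.2%, 1277 positions). The Kdm2b stretch also takes in sequence before every annotated start of the gene. Kdm4c (chr4:74244497-74405860) reached 36.9% (34.8–39.1%, 245 positions) and Nsd1 (chr13:55211782-55318325) 31.9% (29.6–34.3%, 205 positions). These levels depended on the stretch and on the read minimum. Over the whole gene span, which takes in the start, Kdm2a was at 34.4%, Setd2 at 27.6% and Nsd1 at 15.5%. With a minimum of 1 read Nsd1 was at 40.6% and Kdm4c at 47.1%, and with a minimum of 10 reads they were at 15.8% and 29.4%. The low pair had many of their measured positions inside an unmethylated CpG island near the start, 98 in Kdm4c and 66 in Nsd1. With CpG islands left out, a choice made after these values were seen, Kdm4c reached 63.8% (60.9–66.6%) and Nsd1 45.2% (42.1–48.3%), and the 7 together 57.9%, where the median of 8680 expressed bodies, by the mean over positions, was 51.4%. Kdm2b, with 486 of its 1277 positions inside islands, was then at 50.9% (49.6–52.1%). Kdm4c, the lowest of the 7 in RNA, thus had a body outside its island near the level of Kdm2a and Kdm4a.

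**Figure D3:**
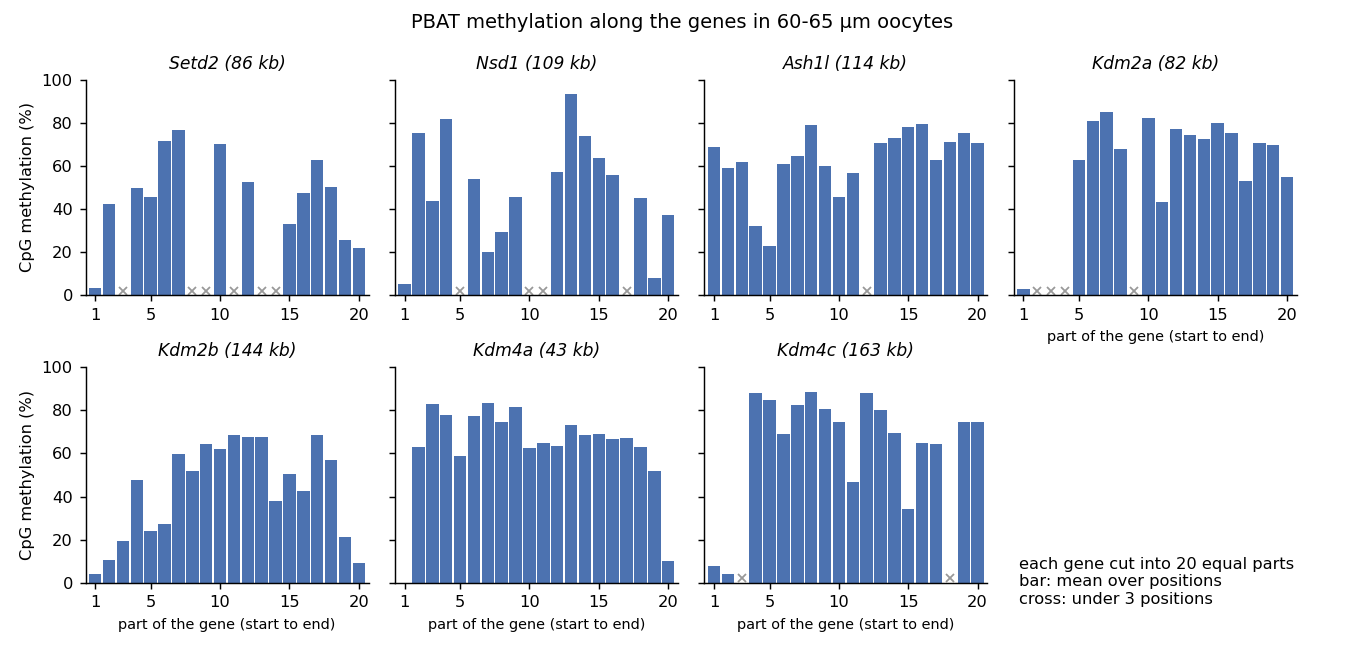
PBAT methylation (percent, mean over CpG positions) along each gene in 20 equal parts from the start to the end in the table, in 60–65 µm oocytes, with crosses where fewer than 3 positions were measured. The first part of Setd2, Nsd1, Kdm2a, Kdm2b, Kdm4a and Kdm4c lies between 0 and 7.8%, that of Ash1l at 68.8%, and in Kdm4a every part from the second to the nineteenth lies between 51.8 and 83.5%.

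Along 6 of the 7 genes the first of 20 equal parts was the lowest or among the low ones, and methylation was higher further in. In Kdm4a the first part was at 0%, the second at 62.9% and the last at 9.9%. In Kdm2a the first part was at 2.6% and the fifth, the next with at least 3 positions, at 62.7%. Ash1l was the exception, with 68.8% in its first part. The start of the Ash1l row in the table (chr3:88965812) lies inside longer annotated transcripts that begin at chr3:88950622, and the CpG island there, chr3:88949550-88951286, was unmethylated (1.40% in PBAT over 115 positions). Kdm2b was patchy, with 10.7% in the second part, 68.8% in the eleventh and 9.2% in the last.

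RRBS followed 3 of the bodies through growth with enough positions for a test. Kdm2b had a mean methylation of 3.35 and 2.18% in libraries A and B at 40–45 µm, 17.2 and 23.2% at 50–55 µm and 41.8 and 46.1% at 60–65 µm. Kdm4a had 3.20 and 4.99%, then 24.8 and 40.2%, then 48.4 and 48.3%. Kdm4c had 1.92 and 3.02%, then 7.59 and 13.5%, then 14.0 and 19.5%. All 3 rose with every size class without overlap. By edgeR's quasi-likelihood test on methylated and unmethylated calls, the log2 odds rose by 5.21 for Kdm2b (adjusted p = 2.1e-05), 4.49 for Kdm4a (adjusted p = 3.64e-05) and 3.50 for Kdm4c (adjusted p = 0.000313). This was the common course, because 83.9% of the 4079 bodies tested rose, and the requirement of a 5% mean methylation favours bodies that gained. In percentage points Kdm2b gained 41.2 (percentile 68.1 of all bodies tested) and Kdm4a 44.3 (percentile 73.0), whereas Kdm4c gained 14.3 (percentile 28.4), against a median of 29.4.

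In Kdm4c much of the covered sequence was its island. With islands left out, 10–13 positions remained, and they gave 4.40 and 13.2% at 40–45 µm, 47.1 and 50.8% at 50–55 µm and 89.5 and 82.1% at 60–65 µm. In Kdm2b 42–86 positions remained without its islands, and they gave 4.98 and 1.70%, then 17.1 and 23.5%, then 35.4 and 39.2%. Its whole-body values thus take in islands described further on. Nsd1, whose mean over the 6 libraries was under the 5% minimum (1.51 and 0.243%, then 2.96 and 4.04%, then 6.62 and 8.86%), gave 2.43 and 0.904%, then 14.98 and 21.1%, then 34.9 and 39.7% over 8–11 positions outside its islands. Without the minimum Nsd1 also rose (4.08 in log2 odds, edgeR adjusted p = 0.000833). For Setd2 only 2–4 positions per library were covered, at 1.36 and 0%, then 15.6 and 10.0%, then 36.9 and 32.5%, without overlap between the classes. Kdm2a, over 3–11 positions, was at 1.58 and 0.442%, then 29.1 and 16.7%, then 23.9 and 12.1%, so that the larger classes overlapped by this mean over positions. As shares of pooled calls they did not, at 18.0 and 18.6% and then 32.4 and 25.1%. By either measure both 60–65 µm libraries lay under the PBAT value (65.5% as a mean over positions, 67.1% of pooled calls). Ash1l was hardly covered, and none of these 3 was tested.

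**Figure D4:**
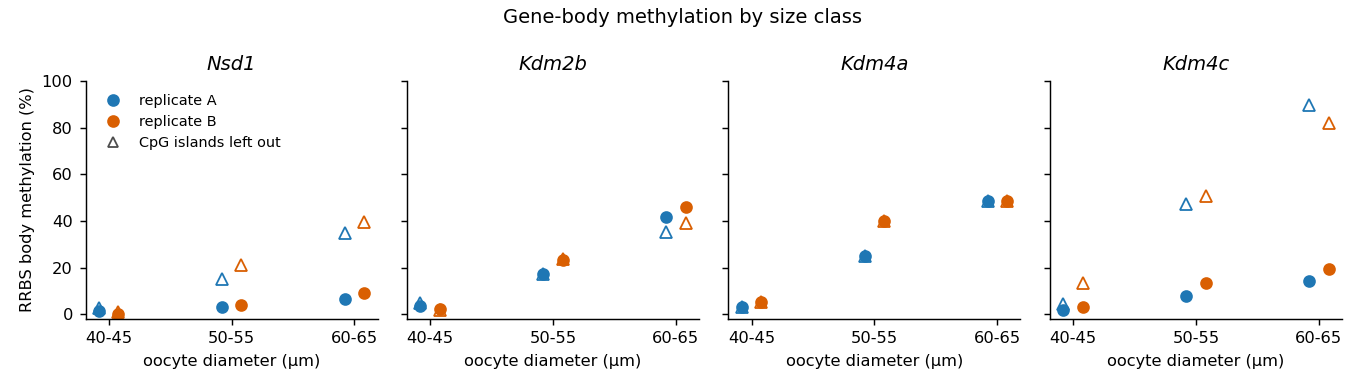
Mean RRBS methylation (percent) of the bodies of Kdm2b, Kdm4a, Kdm4c and Nsd1 in libraries A and B of each size class, with all positions (filled points) and with CpG islands left out (open triangles). Kdm4c reaches 14.0 and 19.5% at 60–65 µm with all positions and 89.5 and 82.1% without its island.

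CpG islands, stretches rich in CpG that usually mark promoters and stay unmethylated, were defined on GRCm38 in windows of 500 bases with at least 55% GC and an observed to expected CpG ratio of 0.65, which gave 20186 islands. The islands at the starts of Setd2 (chr9:110531729-110533563), Kdm2a (chr19:4396179-4398935) and Kdm4c (chr4:74251399-74252852), the pair at Nsd1 (chr13:55209722-55211019 and chr13:55211079-55213170) and the island at Ash1l were between 0 and 1.99% in every RRBS library and between 1.40 and 4.50% in PBAT. Each of them overlaps exons of its gene in part. None of them passed the edgeR test between 40–45 and 60–65 µm, although Kdm2a had an unadjusted p of 0.0383 (adjusted p = 0.808). The Setd2 and Kdm4c promoter windows printed above behaved likewise, with 0–3.37% in RRBS for Setd2 and 0–1.59% for Kdm4c. At 60–65 µm the Kdm4c window had 13 positions and 65 calls in library A, and no position with enough reads in library B. The Kdm4a start, with few positions, was at 3.84% in PBAT within its promoter window (11 positions).

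Kdm2b held 6 CpG islands, numbered here from the outer end of its row, and 3 of the 5 that could be tested gained methylation, against 0 of the 6 tested at the other genes, of which 1 had an unadjusted edgeR p under 0.05. The row of the table spans 122870668 to 123015080 on chromosome 5, minus strand, which begins beyond every annotated Kdm2b start (the furthest at 122989823) and next to the start of Orai1, a neighbouring calcium channel gene on the other strand. Island 1, at that outer end (chr5:123014507-123015920), which holds no Kdm2b exon, was at most 1.99% in RRBS and 5.82% in PBAT. The islands that gained methylation all lie at annotated Kdm2b starts inside the row, with part of each in exons of the gene. Another annotated gene, A930024E05Rik on the other strand, also starts within 1 kb of islands 2 and 3. Which start produced the RNA was not measured.

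At island 2, chr5:122988956-122989650, which overlaps exons by 377 of its 695 bases and holds the upstream promoter printed above, mean RRBS methylation was 1.49 and 8.36% at 40–45 µm, 24.0 and 11.4% at 50–55 µm and 51.7 and 57.7% at 60–65 µm (log2 odds 6.28, edgeR adjusted p = 0.000114). At the adjacent island 3, chr5:122987462-122988826, it was 0.556 and 0.531%, then 13.7 and 21.7%, then 40.3 and 43.7% (6.32, adjusted p = 0.0287). At island 5, chr5:122899175-122901070, which holds the downstream promoter, it was 1.85 and 1.55%, then 19.99 and 27.5%, then 52.6 and 55.8% (6.51, adjusted p = 0.000209). In each of the 3 the 60–65 µm libraries stood apart from the 40–45 µm libraries. Of all islands tested 1.83% rose, and of the 11016 within 1 kb of a start 1.03%, against 6.58% of the 1853 farther from any start.

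PBAT gave 28.9% (9 positions), 54.3% (44 positions) and 42.4% (316 positions) at these 3 islands in 60–65 µm oocytes. Of 13174 islands within 1 kb of a start, 2.36% reached 25% and the median was 3.22%. Island 4, chr5:122951829-122952869, lies in an intron and over 1 kb from any start. It was not covered by RRBS and had 63.5% in PBAT, at percentile 81.3 of 999 islands inside expressed genes (median 33.2%). Island 6, chr5:122880326-122880875, overlaps exons in 527 of its 550 bases and was at 6.41 and 0.843%, then 0.859 and 24.9%, then 6.78 and 12.0% in RRBS without passing the test (adjusted p = 1), and at 12.8% in PBAT.

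Within the promoter windows, the Kdm2b upstream promoter was at 1.44 and 9.40% at 40–45 µm, 23.1 and 8.37% at 50–55 µm and 49.8 and 57.6% at 60–65 µm. The libraries of the first 2 classes overlapped and those of the last lay above both. The downstream promoter was at 1.17 and 2.51%, then 9.12 and 6.67%, then 30.0 and 22.6%, below the upstream one in both RRBS libraries of 60–65 µm. In PBAT this order was not seen, with 27.5% over 8 positions upstream and 28.8% over 74 positions downstream. Over the same interval Kdm2b RNA, counted over the whole row, rose from 5.77 and 6.53 to 11.8 and 9.29 RPKM.

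**Figure D5:**
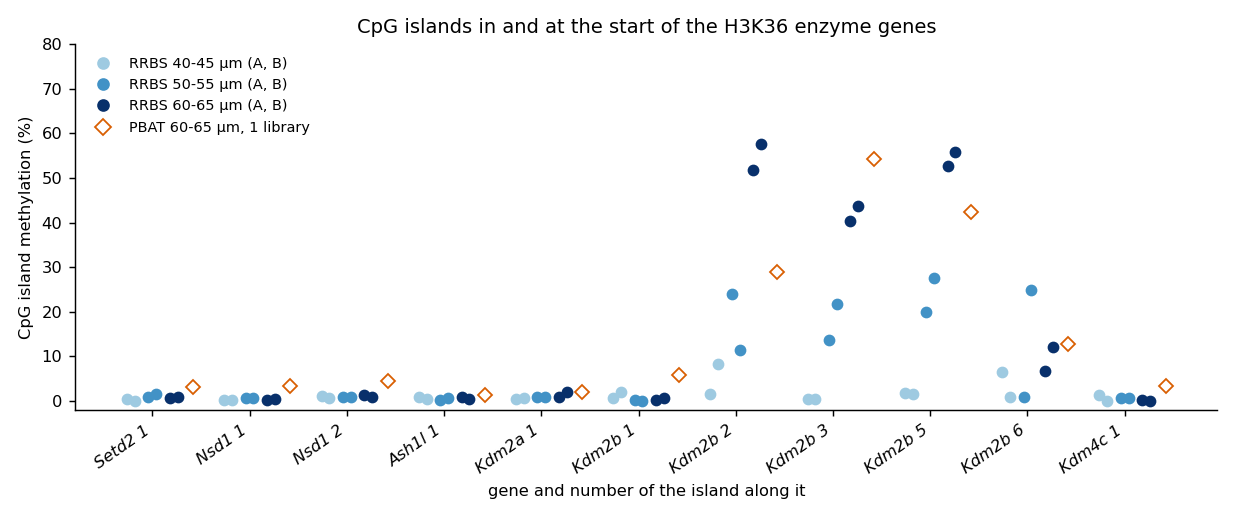
Mean RRBS methylation (percent) of CpG islands of the 7 genes in libraries A and B of each size class, with PBAT of 60–65 µm oocytes as open diamonds. Kdm2b islands 2, 3 and 5, the 3 at annotated starts inside the row, reach 40.3–57.7% at 60–65 µm, whereas the start islands of Setd2, Nsd1, Ash1l, Kdm2a and Kdm4c and Kdm2b island 1 stay at or under 1.99%.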

How the data were processed

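RNA, RRBS and PBAT libraries were made from size-selected oocytes. The RPKM values were deposited by the authors in 1 table, after Trim Galore 0.2.8 and TopHat2 2.0.9 to GRCm38. The methods name more than one program for quantification, and which made the table is not given in the sources used here. For methylation the authors deposited, per CpG cytosine, a percent methylated and the counts of methylated and unmethylated calls, after Trim Galore 0.3.5 and Bismark 0.14.0 (RRBS, with no removal of PCR duplicates stated) or Bismark 0.10.0 (PBAT, deduplicated). Labels and methods, not values, gave the groups.

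RPKM were scaled between libraries by a trimmed mean (30% by ratio, 5% by level), genes with at least 0.5 RPKM in 2 of 8 libraries were kept, and log2(RPKM + 0.1) was tested with limma 3.58.1 (R 4.3.3) with trend, all 4 size classes in 1 fit. The GV library was left out of the fit. Of the RNA values, replicate libraries correlated at 0.986 or more, and none were identical across genes. Methylation was averaged over positions with at least 5 reads, over genes of at least 4 kb from 2 kb after the start. RRBS calls were tested with edgeR 4.0.16 where each library had 5 positions and the mean was at least 5%, the minimum mean not being applied to islands. Scripts were tested on simulated data. Named genes of the pathway lists were those that passed over growth with the largest change in each direction. The 7 genes, the lists and the tests were chosen with earlier results of these data known. Alternatives tried were other pseudocounts, filters, scalings, read minima, gene spans, fits and the omission of each library.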

Additional observations from a re-analysis of the deposited data

How the results depend on the processing

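Over the whole of growth the RNA changes of Kdm2b, Kdm4a and Setd2 kept their call in all 18 other settings and that of Kdm4c in all 17 in which it was tested, whereas that of Kdm2a was lost in 4 of 18. The RRBS gains of Kdm2b, Kdm4a and Kdm4c kept theirs in 13 of 13 (largest edgeR adjusted p = 0.00408). Of the 7 genes, 3 passed from 10–30 to 40–45 µm, but only 1 with no filter on low values or with the 2 classes alone in the fit, and that fit called 1143 genes in place of 2494. From 40–45 to 60–65 µm 2 passed, but 1 with no filter and 1 with a filter of 1 RPKM. With single libraries left out, the first step gave 1–4 of the 7 and 1014–2890 genes (fewest without library A of 40–45 µm), the second 1–3 and 1396–4465 (fewest without library A of 60–65 µm), and the whole of growth 4–6 and 4818–6608. From 10–30 to 40–45 µm the direction of Nsd1 reversed without scaling (-0.047) and with libraries scaled to the same sum (-0.057), and that of Ash1l without library B of 10–30 µm (0.013, within a range from -0.079 to 0.013 with single libraries left out), with adjusted p = 0.755–0.948 in limma where they reversed. The replicate letters were not treated as pairs: the A minus B differences of RNA correlated at 0.591–0.672 among the 3 smaller classes, but 60–65 µm correlated with them at -0.226, -0.0278 and 0.115, and the RRBS libraries at -0.0192 to 0.000425. With the letter as a replicate block, 3339, 4898 and 7260 genes passed in the 3 RNA comparisons and 3, 3 and 5 of the 7, and 3394 RRBS bodies, the added gene in the second step being Setd2 (0.35, limma adjusted p = 0.0390). The PBAT methylation of the 7 bodies, 51.5%, was 52.5% with a minimum of 1 read, 50.6% with 10 reads, 43.2% over the whole gene span and 57.9% with islands left out. The 3421 RRBS bodies that passed became 3191–3486 with single libraries left out and 2947–4394 under the other settings. The causes were not tested. Depth limits Kdm4c most, at approximately 120 reads in its shallowest library, and limits RRBS of Setd2, Ash1l and Kdm2a bodies to few positions.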
